A study of Brassica rapa subsp. chinensis with 6 samples.

Results

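Genes of 5 transcription factor families, MYB, bHLH, homeobox, GATA and bZIP, were followed in a chlorotic pakchoi mutant. They were taken from a table of 2958 genes that the authors had called as different between the mutant and its wild type. A gene entered when the sequence match given for it in the table named MYB, bHLH, helix-loop-helix, homeobox, ATHB, GATA, bZIP or TCP family. Matches naming far-red, phytochrome, circadian, auxin, WRKY or MADS were barred. Of 51 genes with a rule word, 1 was left out, Bra026461, which the rule sets aside by its identifier. This gave 50 genes of 2958, of which 18 were MYB, 9 bHLH, 16 homeobox, 2 GATA and 5 bZIP genes, and 0 were named as TCP family.

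The species was *Brassica rapa* subsp. *chinensis*, and RNA came from its aboveground parts, sampled when the plants were trifoliate. The wild type was strain 564 and the mutant, with chlorosis, was strain 564Y, each with 3 libraries that the labels call biological replicates. The labels name neither the mutated gene nor how 564Y was derived, and no treatment. A whole-shoot sample mixes organs and cell types, so fewer cells of a type and less RNA per cell cannot be told apart. The comparison asked which genes differ between the chlorotic plant and its wild type.

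MYB proteins bind DNA through repeats of a tryptophan-rich helix-turn-helix fold, and in plants the family with a pair of repeats, R2R3, controls phenolic compounds, cell shape and stress responses. bHLH and bZIP proteins bind DNA as dimers, at E-boxes and at ACGT-containing elements respectively. Homeobox proteins carry a homeodomain. In plants many of them join it to a leucine zipper (HD-Zip), and others pair it with a zinc finger or belong to the WUSCHEL-related (WOX) group. GATA factors hold a zinc finger, and some act in chloroplast development. The roles given below are those known from *Arabidopsis*.

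The table gave group means only, but whole read counts per library could be worked out from them for 47 of the 50 genes and for 2615 of the 2958. The sum of reads in a group and the same reads divided by the size factors of the libraries leave 1 set of whole numbers for these genes. Size factors were 0.961 to 0.988 in the wild type and 1.02 to 1.04 in the mutant. Libraries A, B and C of each strain are named here in order of falling size factor, because their link to the labels' replicate numbers is unknown. Mean reads of the called genes summed to 1348884 per wild type library and 1677855 per mutant library, which are not library depths. Normalised reads are reads divided by the size factor, and a fold is a ratio of their group means. Called leaf markers were lower (3 of 3, summed at 1229 to 2134 normalised reads per wild type library and 523 to 721 per mutant library). Of 3 called root markers, 2 were higher and 1 was lower (30.5 to 34.4 against 81.6 to 91.4, with the kinase gene PERK13 at 0 reads in the mutant). The 2 called flower markers were higher (0 to 2.02 against 38.4 to 41.4, with the AGL8 homolog at 0 reads in the wild type). A further called gene, matched to the MADS protein FUL-d (Bra035952), was lower, with authors' means of 206.8 and 103.03 normalised reads, and AGL8 is also known as FUL. Higher as well were the 2 seed markers (18.2 to 18.7 against 64.5 to 89.3). Most of the leaf sum came from the photosystem gene PSAG (Bra038011), with authors' means of 1589 and 602.6 normalised reads. Whether the organ make-up of the samples differed cannot be told from so few called genes. The part of such a difference in the values below was not tested.

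In the mutant, 31 of the 50 factor genes had higher levels and 19 had lower levels. The share of higher genes was 62%, against 59.7% of all 2958 genes, of which 40.3% were lower, so the direction of these families was close to that of the table. Every gene of the table had been called by the authors (100%), with an absolute log2 ratio of at least 1 and an adjusted p under 0.001. The members' adjusted p-values in the authors' deposited table ranged from 1.91e-65 to 0.000883. The median absolute log2 ratio was 1.70 for the 48 members with reads in both strains, and 1.63 over the table. A log2 ratio of at least 2 in size was reached by 16 of the 50 members (32%), against 37.8% of the table. Both shares also count genes with 0 reads in 1 strain, by the authors' ratio, and 2 of the 16 members are such genes. In all 47 members with values per library, the 3 mutant libraries lay apart from the 3 wild type libraries, as they did in 100% of the 2615 genes so recovered, all of which had been selected for a difference. For comparison, the 77 called genes of other factor families matched by product words (WRKY, NAC, AP2/ERF, MADS and others) were higher in 55.8%.

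**Figure D1:**
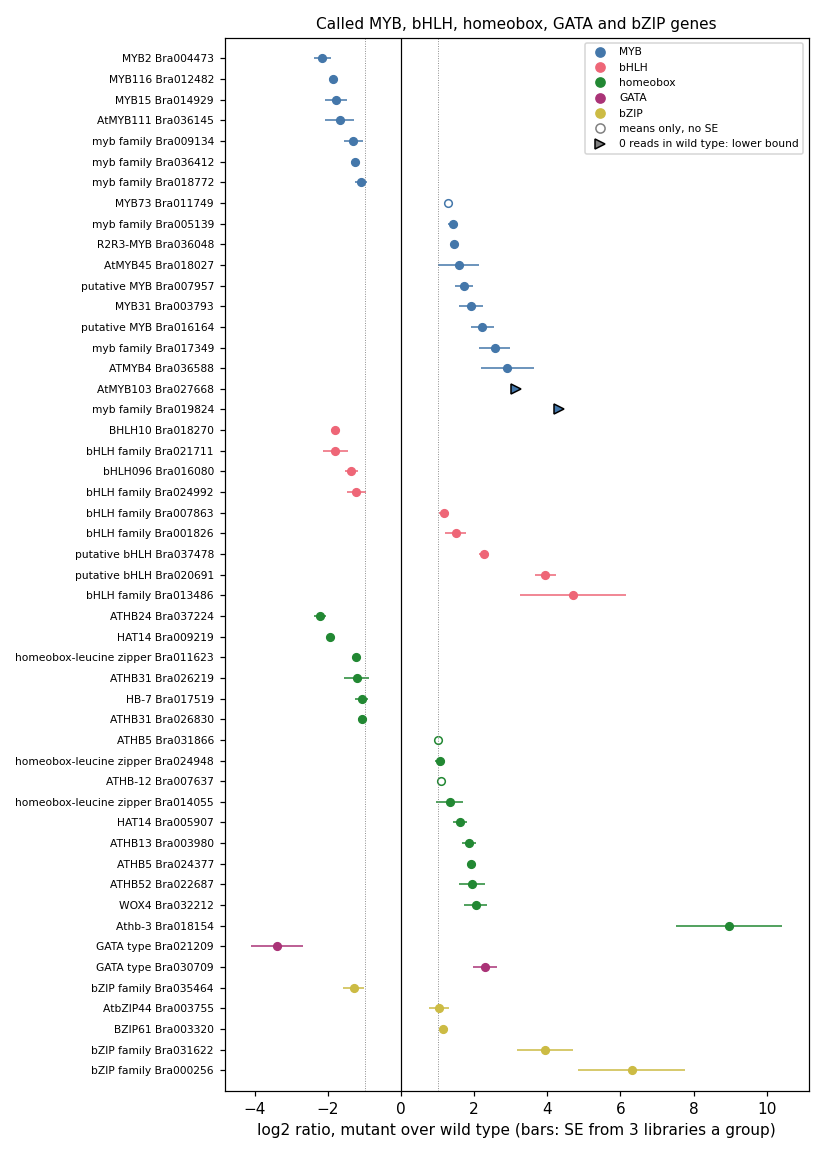
Log2 ratio of mutant over wild type (x axis) for the 50 called genes (y axis), coloured by family, with bars for the SE from 3 libraries per strain. Open points have group means only, triangles are lower bounds for genes with 0 reads in the wild type, and dotted lines mark the authors' limit of 1. In this plot 31 genes lie to the right of 0 and 19 to the left, and Athb-3 stands farthest out at 8.97.

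Per length of coding sequence, the members spanned a wide range of levels. The ATHB5 gene Bra031866 was the most abundant, at 959.3 normalised reads per kilobase in the wild type against 1934 in the mutant. It was followed in the mutant by ATHB-12 (Bra007637) at 1662 and MYB73 (Bra011749) at 1192 normalised reads per kilobase. In the wild type the next levels after ATHB5 were those of HAT14 (Bra009219), at 898.6, and of the MYB gene Bra018772, at 868.3 normalised reads per kilobase. The least abundant was AtMYB103 (Bra027668), with 0 in the wild type against 8.14 in the mutant.

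Homeobox genes are given by the class known in *Arabidopsis* for the symbol in their match, with 1 to 6 genes a class and no test between classes. All 6 genes named after class I HD-Zip factors (HD-Zip I) were higher, with log2 ratios from 1.01 to 8.97 and a median of 1.88. All 3 genes named ATHB24 or ATHB31, which are zinc finger homeodomain factors, were lower, with log2 ratios from -2.21 to -1.07. The class II HD-Zip (HD-Zip II) genes, both named HAT14, went opposite ways, and the WOX gene was higher. The 3 HD-Zip genes whose match gives no symbol were split, 2 higher and 1 lower. No called gene carried a symbol of class III HD-Zip in its match. The homeobox family as a whole had 10 higher and 6 lower members (62.5% higher, against 59.7% of the table).

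Among the HD-Zip I genes, ATHB5 raises the response of seedlings to abscisic acid. The ATHB5 gene Bra024377 had 255, 244 and 222 reads in wild type libraries A to C and 962, 969 and 927 in the mutant libraries. Its normalised mean rose from 245.8 ± 13.7 to 920.6 ± 13.7 (SD over n = 3 libraries each), 3.75-fold, with an adjusted p of 7.01e-54 in the authors' deposited table. The libraries of a strain lay close together and the strains were far apart. The more abundant ATHB5 gene, Bra031866, averaged 895 normalised reads in the wild type against 1805 in the mutant, 2.02-fold higher, and was the member closest to the authors' limit. The libraries of the mutant could not be worked out for it, and the same held for ATHB-12 and MYB73.

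ATHB-12, which is induced by drought and abscisic acid, had 498, 552 and 524 reads in the wild type libraries and rose 2.15-fold, with authors' means of 536.9 and 1152 normalised reads. ATHB13 (Bra003980), which acts in leaf shape and stem growth, had 15, 18 and 15 reads in the wild type against 72, 64 and 47 in the mutant, a 3.598-fold rise. ATHB52 (Bra022687) rose 3.83-fold from 14.7 ± 5.30 to 56.3 ± 13.9 normalised reads (SD over n = 3 each). The mutant libraries of both genes were all above their wild type libraries, and the strains lay apart in 100% of the 2615 recovered genes. Library A of the mutant was the highest for each of the 2 genes.

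Athb-3 (Bra018154), another HD-Zip I gene, had 0, 1 and 0 reads in the wild type libraries and 172, 161 and 196 in the mutant. This is near absence in 1 strain and a moderate level in the other. The fold was 503, with an exact 95% counting interval of 89.3 to 19772, and the adjusted p in the authors' deposited table was 1.91e-65. The single wild type read set the fold. Without library A or C of the wild type it was 335.2, and without library B no wild type read was left.

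The genes matched to HAT14 differed most within a pair. HAT14 belongs to HD-Zip II, the class known for shade and auxin responses. Bra009219 had 908, 973 and 816 reads in the wild type against 249, 237 and 258 in the mutant. It fell 3.83-fold, from 919.3 ± 70.4 to 239.7 ± 12.01 normalised reads (SD over n = 3 each), with an adjusted p of 7.5e-56 in the authors' deposited table. Bra005907 had 53, 67 and 72 reads in the wild type against 207, 178 and 238 in the mutant. It rose 3.06-fold, from 65.6 ± 10.9 to 200.9 ± 30.7 (SD over n = 3 each), with an adjusted p of 7.19e-13 in the authors' deposited table.

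The reads of the HAT14 pair were therefore shared out differently. Bra005907 held 6.66% of the pair's normalised reads in the wild type, with 5.52%, 6.44% and 8.11% in the libraries. In the mutant it held 45.6%, with 45.4%, 42.9% and 48.0% in the libraries. The shares did not overlap between strains, but this was fixed in advance. Both genes had been called, in opposite directions and with the libraries of the strains apart, so it is no further support. The smallest p that an exact permutation test of 3 against 3 can give is 0.1. The sum of both genes fell from 984.9 ± 67.9 to 440.6 ± 42.7 normalised reads (SD over n = 3 each), a ratio of 0.447. Over the whole table, 327 pairs of genes had the same best match, and 14.1% of them went opposite ways. Among the members there were 5 such pairs, and HAT14 was the 1 that did.

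**Figure D2:**
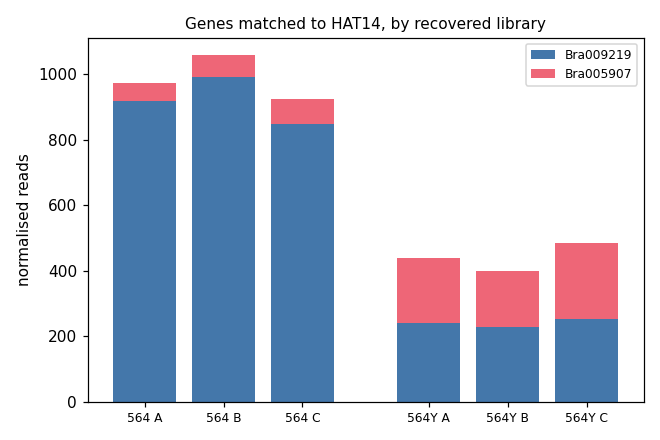
Normalised reads (y axis) of the 2 genes matched to HAT14, stacked, in each of the 3 wild type (564) and 3 mutant (564Y) libraries (x axis). Bra009219 makes up most of every wild type bar, while Bra005907 holds 42.9% to 48.0% of the mutant bars.

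The other pairs moved in 1 direction each. ATHB5 reads came to 21.5% from Bra024377 in the wild type against 33.8% in the mutant, by the authors' means. Both ATHB31 genes were lower. Bra026830 had 610, 554 and 512 reads in the wild type against 303, 306 and 237 in the mutant, 2.10-fold lower, and Bra026219 fell 2.32-fold from 65.8 ± 1.21 to 28.3 ± 11.4 (SD over n = 3 each). The log2 ratio of Bra026830 was -0.96 without mutant library C and -0.99 from mean reads without size factors, both under the authors' limit in size. Bra026219 held 10.3% of the ATHB31 reads in the wild type against 9.42% in the mutant.

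The third zinc finger homeodomain gene, ATHB24 (Bra037224), had 284, 274 and 260 reads in the wild type against 65, 73 and 49 in the mutant. It fell 4.63-fold, from 278.9 ± 8.45 to 60.2 ± 11.4 normalised reads (SD over n = 3 each), the largest fall among the homeobox members. WOX4 (Bra032212), which keeps vascular stem cells dividing, had 29, 15 and 18 reads in the wild type against 105, 89 and 76 in the mutant, 4.12-fold higher. The gene named HB-7 (Bra017519) was placed in no class and was not counted with HD-Zip I. It fell 2.11-fold, from 123.3 ± 26.2 to 58.3 ± 1.51 (SD over n = 3 each). Its log2 ratio was -0.90 without wild type library B, under the authors' limit in size.

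Among 3 HD-Zip genes of no stated class, Bra024948 rose 2.09-fold, to 447.2 ± 64.0 normalised reads, and Bra011623 fell 2.35-fold, from 173.0 ± 9.71 to 73.7 ± 5.84 (SD over n = 3 each). The log2 ratio of Bra024948 was 0.94 without mutant library A and 0.63 with TMM scaling (trimmed mean of M values over the recovered genes), both under the authors' limit. TMM takes most genes as unchanged, whereas the recovered genes had all been called, so values with TMM scaling cannot decide whether a call holds. Bra014055 rose 2.51-fold, and its log2 ratio was 0.89 with TMM scaling, but its wild type libraries were uneven, with 189, 91 and 101 reads. The variance between these libraries was 21.9 times that of counting alone. The mutant libraries of Bra014055, with 379, 333 and 297 reads, were all higher than wild type library A. The strains lay apart in 100% of the 2615 recovered genes, all selected for a difference.

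**Figure D3:**
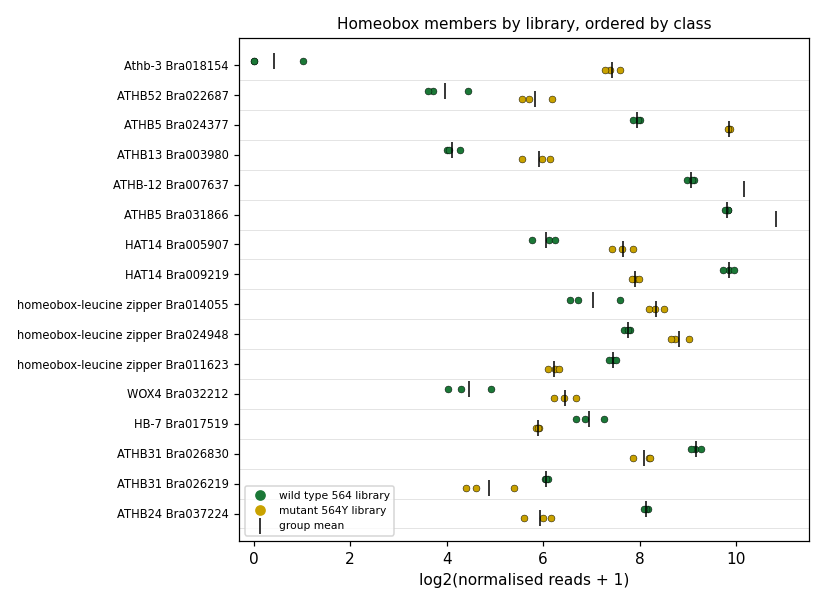
Log2(normalised reads + 1) (x axis) of the 16 homeobox genes (y axis), ordered by class, with a point for each recovered library and a bar for each group mean. The HD-Zip I genes at the top have their mutant values to the right of the wild type values, and the zinc finger homeodomain genes at the bottom have them to the left. Mutant points are missing for ATHB-12 and Bra031866, whose mutant libraries could not be worked out.

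MYB genes had 11 higher and 7 lower members (61.1% higher). The higher ones had log2 ratios of 1.29 to 2.90 where both strains had reads, and the lower ones of -2.15 to -1.09. Among those with a known role, the stress factor MYB2 and the flavonol factor AtMYB111 fell. A gene that its match names ATMYB4, with no role in the match, rose. No called gene carried a symbol of the glucosinolate MYBs, or of the factors of trichomes and epidermis, in its match. The 9 MYB genes whose match has no number could not be read by this search, nor could genes whose match uses another symbol.

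AtMYB111 (Bra036145), which activates flavonol synthesis genes, had 60, 49 and 43 reads in the wild type against 25, 11 and 14 in the mutant. It fell 3.22-fold, from 51.8 ± 8.16 to 16.1 ± 7.03 normalised reads (SD over n = 3 each), with an adjusted p of 4.04e-05 in the authors' deposited table. Of 9 called genes for flavonoid enzymes 8 were lower, against 40.3% of the table. The 1 higher gene was matched to flavonol synthase 3 (Bra038648), with authors' means of 4.43 and 31.3 normalised reads. The match of Bra036588 gives the name ATMYB4 alone, and whether it is the MYB4 that represses the cinnamate 4-hydroxylase gene was not tested. Bra036588 had 14, 2 and 6 reads in the wild type against 65, 70 and 39 in the mutant. It rose 7.48-fold, with an exact 95% counting interval of 4.78 to 12.2, and 13.5-fold without wild type library A. The called cinnamate 4-hydroxylase gene (Bra021636) was lower in the mutant, with authors' means of 561.0 and 176.9 normalised reads. The relation between these factors and the enzyme genes was not tested.

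AtMYB103 (Bra027668), named after a factor of secondary wall lignin, had 0 reads in every wild type library and 7, 10 and 11 in the mutant. Against a floor of 3 reads over the wild type group it was at least 8.82-fold higher. MYB15 (Bra014929), which acts in cold responses and defence lignin, fell 3.47-fold from 91.8 ± 12.01 to 26.5 ± 8.95 normalised reads (SD over n = 3 each). Of 9 called genes for lignin enzymes 6 were higher (66.7%), close to the 59.7% of the table, among them 4 laccase genes, which oxidise lignin monomers in the wall. The 3 with the lowest wild type levels had 0.675 to 0.694 normalised reads in the wild type and 59.9 to 82.9 in the mutant, by the authors' means.

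Abscisic acid and stress factors named MYB went both ways. MYB2 (Bra004473), a calmodulin-binding activator of drought genes, had 288, 209 and 234 reads in the wild type against 72, 55 and 47 in the mutant. It fell 4.45-fold, from 249.2 ± 39.7 to 56.0 ± 11.9 normalised reads (SD over n = 3 each), with an adjusted p of 1.72e-17 in the authors' deposited table. MYB73, of a group known for salt stress responses, had 434, 478 and 498 reads in the wild type libraries. It rose 2.45-fold, with authors' means of 481.2 and 1177 normalised reads. In the list of drought and abscisic acid factors, which also holds both ATHB5 genes and ATHB-12, MYB2 was the 1 lower gene of 5. The share of higher genes in this list was 80%, against 59.7% of the table, and the difference was not tested. The list is short, and both ATHB5 genes in it have the same best match.

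Other numbered MYB genes also split. MYB31 (Bra003793) had 49, 47 and 31 reads in the wild type against 205, 194 and 107 in the mutant, 3.76-fold higher, with mutant library C well below the others. AtMYB45 (Bra018027) had 13, 7 and 27 reads in the wild type against 55, 49 and 45 in the mutant. It was 2.98-fold higher, and 4.73-fold without wild type library C. With TMM scaling its adjusted p in edgeR's quasi-likelihood test was 0.0053, above the limit of 0.001. MYB116 (Bra012482) fell 3.65-fold, from 124.8 ± 6.86 to 34.1 ± 3.96 normalised reads (SD over n = 3 each), with libraries that agreed within counting noise in both strains (variance 0.366 and 0.477 times that of counting).

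Of 9 MYB genes with no number in their match, 6 were higher and 3 lower (66.7% higher, against 59.7% of the table). Bra019824 had 0 reads in the wild type libraries and 22, 27 and 14 in the mutant, at least 19.8-fold higher. Bra017349 rose 5.88-fold, from 25.8 ± 11.8 to 151.9 ± 32.2 normalised reads (SD over n = 3 each). The pair matched to a putative MYB of *Isatis tinctoria* rose together. Bra016164 had 41, 22 and 49 reads against 191, 190 and 173, and Bra007957 had 58, 84 and 70 against 285, 275 and 180. The R2R3-MYB gene Bra036048 rose 2.74-fold with little spread, from 124.5 ± 5.91 to 340.8 ± 4.001 (SD over n = 3 each), and Bra005139 rose 2.66-fold, with a log2 ratio of 0.98 under TMM scaling.

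The lower MYB genes of this group were abundant in the wild type. Bra018772 fell 2.13-fold from 776.3 ± 63.1 to 364.0 ± 65.5 normalised reads (SD over n = 3 each), and its log2 ratio was -0.96 without mutant library C. Bra036412 fell 2.40-fold from 421.0 ± 27.2 and Bra009134 fell 2.48-fold from 286.3 ± 55.3 (SD over n = 3 each). For each of these genes the highest mutant library was below the lowest wild type library. The strains lay apart in the same way in 100% of the 2615 recovered genes, all selected for a difference.

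**Figure D4:**
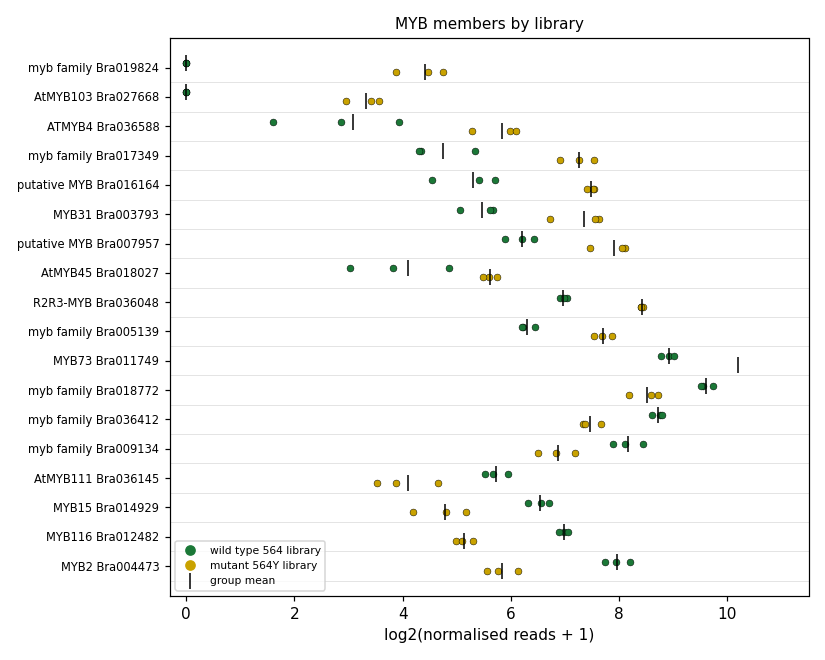
Log2(normalised reads + 1) (x axis) of the 18 MYB genes (y axis), with a point for each recovered library and a bar for each group mean. The wild type points of the top genes, Bra019824 and AtMYB103, lie at 0, and the 7 genes at the bottom have their mutant values to the left of the wild type values. Mutant points are missing for MYB73, whose mutant libraries could not be worked out.

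bHLH genes had 5 higher and 4 lower members (55.6% higher). The pair matched to a putative *Arabidopsis* bHLH factor rose. Bra037478 had 126, 111 and 106 reads in the wild type against 524, 555 and 671 in the mutant, 4.83-fold higher, with an adjusted p of 3.44e-25 in the authors' deposited table. Bra020691 had 1 read in each wild type library and 16, 11 and 22 in the mutant, 15.5-fold higher with an exact 95% counting interval of 4.98 to 77.4. Bra020691 held 0.868% of the pair's reads in the wild type against 2.73% in the mutant, so most of the pair's RNA came from Bra037478 in both strains.

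Another low bHLH gene, Bra013486, had 0, 0 and 2 reads in the wild type against 21, 22 and 13 in the mutant. Its fold of 26.0 had an exact 95% counting interval of 6.99 to 224, and without wild type library C no wild type read was left. Bra001826 rose 2.80-fold and Bra007863 rose 2.24-fold, and the log2 ratio of Bra007863 was 0.73 under TMM scaling. The lower genes included BHLH10 (Bra018270), named after a factor of the anther tapetum, with 62, 66 and 54 reads in the wild type against 16, 19 and 20 in the mutant, 3.50-fold lower. Bra021711 fell 3.48-fold, bHLH096 (Bra016080) fell 2.57-fold and Bra024992 fell 2.33-fold. No called gene carried a symbol of the bHLH factors of jasmonate signalling, iron uptake, stomata or root hairs in its match. Most bHLH members have a match that names the family alone, which this search could not read.

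bZIP genes had 4 higher members and 1 lower (80% higher, against 59.7% of the table). Among called bZIP genes that the rule does not read, HYH was higher, while GBF6, TGA4 and the gene matched to perianthia were lower. The largest change among the members was that of Bra000256, with 0, 2 and 0 reads in the wild type against 41, 55 and 71 in the mutant. It was 79.5-fold higher, with an exact 95% counting interval of 21.5 to 657. The fold was 52.97 without wild type library A or C, and without library B no wild type read was left. Bra031622 had 0, 4 and 3 reads against 45, 26 and 43, and was 15.3-fold higher with an exact 95% counting interval of 7.23 to 39.1. Its fold was 10.2 without wild type library A and 23.5 without library B.

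AtbZIP44 (Bra003755), of the group whose translation is repressed by sucrose, had 274, 176 and 146 reads in the wild type against 442, 415 and 429 in the mutant. It rose 2.04-fold, from 202.8 ± 66.0 to 414.3 ± 13.3 normalised reads (SD over n = 3 each). The variance between its wild type libraries was 20.98 times that of counting, and its log2 ratio was 0.95 without wild type library B and 0.86 without library C, and 0.60 with TMM scaling, all under the authors' limit. BZIP61 (Bra003320) rose 2.23-fold, from 66.1 ± 7.96 to 147.6 ± 16.2, with a log2 ratio of 0.73 under TMM scaling, and Bra035464 fell 2.46-fold, from 102.4 ± 6.04 to 41.6 ± 13.99 (SD over n = 3 each).

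The GATA genes moved in opposite directions. Bra030709 had 4, 7 and 9 reads in the wild type against 32, 35 and 37 in the mutant, 4.90-fold higher. Bra021209 had 58, 65 and 46 reads in the wild type against 11, 4 and 2 in the mutant, 10.6-fold lower, with an adjusted p of 2.94e-13 in the authors' deposited table. This was the largest fall among the 50 genes, and it was 19.8-fold without mutant library A, which held most of the mutant reads.

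**Figure D5:**
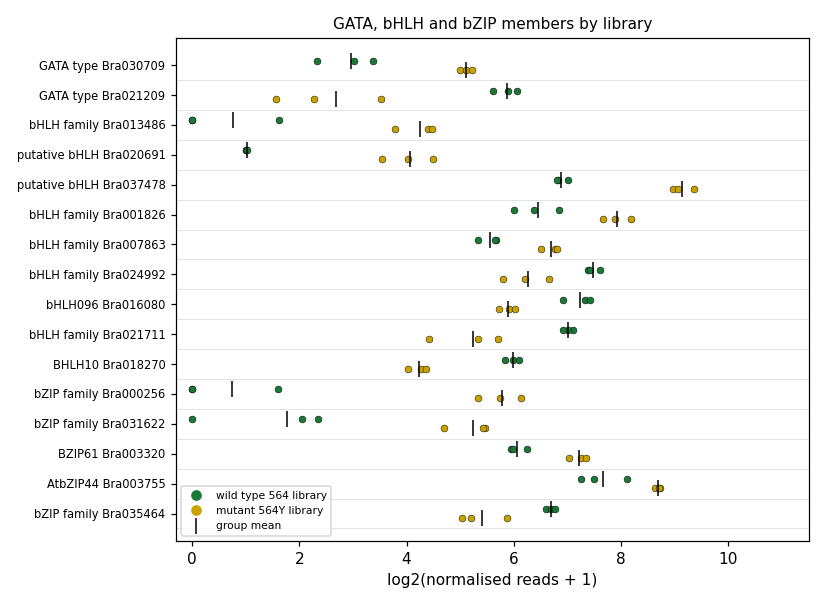
Log2(normalised reads + 1) (x axis) of the 2 GATA, 9 bHLH and 5 bZIP genes (y axis), with a point for each recovered library and a bar for each group mean. The lowest wild type group means are those of Bra013486, Bra020691, Bra000256 and Bra031622, and the wild type points of AtbZIP44 are spread widely.

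Several members were near absence in the wild type and none were in the mutant. Of the 31 higher genes, 6 had fewer than 4 reads in all wild type libraries together, namely Athb-3, Bra000256, Bra013486, Bra020691, Bra019824 and AtMYB103. Of the 19 lower genes, 0 had so few reads in the mutant. In the table, 148 of 1766 higher genes and 91 of 1192 lower genes were below that number in the strain with less, and 8.08% of all genes were. These 6 genes came from the MYB, bHLH, bZIP and homeobox families.

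Spread between libraries was also compared with the rest of the table. Where a group mean was at least 20, the median coefficient of variation of the members was 9.33% for wild type and 15.3% for mutant libraries, compared with 11.3% and 11.9% over the table. Mutant library C was the lowest of the 3 in 25 of 45 members with at least 30 mutant reads (55.6%), against 36.5% of such genes in the table. The largest mutant variances relative to counting were those of MYB31 and the *Isatis*-matched gene Bra007957, at 16.2 and 12.6 times, and library C was the lowest for both.

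Other called genes of these families carry names that the rule does not read. They were found through lists of symbols by role. All 3 matched growth-related bHLH genes were higher, where 59.7% of the table was higher. They were both HFR1 genes, whose shared match text names far-red light, and the brassinosteroid response gene BEE3 (Bra008113). BEE3 was 17.3-fold higher, with authors' means of 4.81 and 83.1 normalised reads. Both genes named KNAT6, a homeobox factor of the meristem boundary, were higher, Bra016348 by 6.22-fold to 236.2 normalised reads and Bra024591 by 3.11-fold to 166.1. The growth factor gene AT-TCP20 (Bra039096) was 8.12-fold higher, at 47.3 normalised reads in the mutant. Among bZIP genes, the HY5 homolog HYH (Bra021258), a factor of light responses, was 2.44-fold higher. GBF6 (Bra034639), TGA4 (Bra016389) and the gene matched to perianthia (Bra004329) were lower, by 2.02-fold, 4.39-fold and 4.12-fold. The list of bZIP groups held these 3 lower genes and the higher members AtbZIP44 and BZIP61.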

How the data were processed

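The authors deposited 1 table of called genes with, per the file headers, mean reads of each strain (an unscaled signal), base means (reads divided by size factors), the log2 ratio of mutant to wild type, a p-value, an FDR (the adjusted p-value) and a length. All lengths are multiples of 3 and are read as coding lengths. The submitters' processing notes list Bowtie2 2.2.3, TopHat2 2.0.12 and DESeq 1.10.1 without roles. For the genome build, annotation, counting and reads shared by near-identical copies, nothing is given in the sources used here. Values of single copies are therefore uncertain. The labels' protocol speaks of several time points, and the sample labels give 1 stage.

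Mean reads times 3 were whole within 0.001 for 100% of genes. Whole counts per library were solved from them and the base means, using size factors read from genes with 1 read, and tested on simulated data. SDs come from 3 libraries, fold intervals are exact binomial intervals at 95% and cover counting error only, and a group at 0 reads was set to a floor of 3 reads. edgeR 4.0.16 (quasi-likelihood, Benjamini-Hochberg) was run on the 2615 recovered genes as an alternative. The table holds called genes only, so it gives no share of all expressed genes. Members and lists were chosen with earlier results of these data known. Genes to name were all members of families with at most 8, in larger families the 8 most abundant, the 6 with the largest log2 ratio and the 4 most abundant with 0 reads in a strain, and those on role lists. This covered 43 members. The other 7 (MYB15, AtMYB45, ATHB13, HAT14 Bra005907, Bra011623, HB-7 and ATHB31 Bra026219) were named after their values were seen, as were genes outside the rule. No gene identifier matched the reference gene table, so coordinates and sequences were not used here.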

Additional observations from a re-analysis of the deposited data

How the results depend on the processing

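Of the 50 members, 31 were higher and 19 lower. With an absolute log2 ratio of at least 2 there were 13 higher and 3 lower members, counting by the authors' ratio the 2 higher genes with 0 wild type reads. Leaving out a library in turn left 27 to 28 higher and 17 to 19 lower among those with counts per library. With TMM scaling, which shifted the median log2 ratio over the selected genes by -0.43, 21 of the 28 higher members with counts per library and all 19 lower ones stayed past the authors' limits in edgeR, against 28 and 19 with the authors' size factors. Lost under TMM were Bra005139, Bra007863, BZIP61, AtbZIP44, Bra014055 and Bra024948 by log2 ratio and AtMYB45 by adjusted p. TMM takes most genes as unchanged, while all genes scaled here had been called, so these losses cannot show which calls fail. Of 453 log2 ratios recomputed over 48 members, 440 kept their direction and a size of at least 1, 13 were under 1 (6 of them with TMM) and 0 reversed. Leaving out a library could not reverse a sign, because the libraries of the strains lay apart in all 47 members with counts per library. In edgeR all 47 members tested had an adjusted p under 0.05, the largest being 0.00038, but all 2615 genes tested did, having been selected by the authors on these libraries. No paired analysis was possible because replicate numbers could not be assigned to the libraries, so the replicate block was not run. Folds of genes with a few wild type reads are limited by counting.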
